A study of Homo sapiens with 4 samples.

Results

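The 32 genes described here make, sense, import, store and export cholesterol, and were followed after knockdown of the transcription factor IRF1 in MV4-11 cells, a human acute myeloid leukemia (AML) line of monocytic character. They were chosen by gene symbol, and all 32 were found among the 23622 genes of the table. They fall into 5 role groups: 5 genes of SREBF2 regulation and sterol transfer, 8 of the early mevalonate steps, 12 of the late sterol steps, 5 of liver X receptor (LXR) efflux, and 2 of esterification and sterol exchange. RNA was sequenced from 2 sh-NC libraries and 2 sh-IRF1 libraries of a wild-type background. Both groups carried a lentiviral pLKO.1 hairpin vector and were selected with puromycin, and the sh-NC hairpin was the control, although the labels list the sh-NC cells as without treatment. The study used more than 1 IRF1 hairpin, and the labels do not say which hairpin each sh-IRF1 library carried. Nothing in the labels says whether the 2 libraries of a group came from separate infections, so the p-values measure only the spread between these libraries.

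The libraries held 17635908 to 18695337 reads, with 3.92% to 4.51% from mitochondrial genes. The targeted gene IRF1 had normalized counts (reads divided by 1 size factor per library) of 785 and 739 in sh-NC and 430 and 432 in sh-IRF1, 56.6% of sh-NC (log2 fold change -0.82, limma adjusted p = 1.69e-10). All 11 MV4-11 markers had values, and their summed normalized counts, led by FLT3, were 30408 and 30419 in sh-NC against 27040 and 27000 in sh-IRF1. Of these markers 8 were called, in both directions: CD14 was at 16.0%, MPO at 37.3%, FCGR1A at 67.1% and FLT3 at 72.9% of sh-NC, and LYZ at 180%, ITGAM at 154% and SPI1 at 113%. The ITGAM call was lost without sh-NC replicate 1 (log2 fold change 0.39) or sh-IRF1 replicate 1 (0.53). Markers of 6 other cell types summed to 233 and 212 in sh-NC and 426 and 456 in sh-IRF1, with 5 of the 20 listed having values, 0 of them T cell or erythroid genes. CD79A, a B cell gene, accounted for most of that difference with 50.3 and 43.1 in sh-NC and 190 and 250 in sh-IRF1. The part of these shifts in the results was not tested, and fewer cells of a type cannot be told apart from less RNA per cell in bulk libraries.

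Cells build cholesterol from acetyl-CoA through the mevalonate pathway, whose early steps also feed isoprenoids, and then through squalene and lanosterol by a chain of endoplasmic reticulum enzymes. The transcription factor SREBF2 switches these enzymes on when membrane sterol is low, escorted by SCAP and held back by the INSIG proteins when sterol is plentiful. LXRs act on the other side of the balance and, when oxysterols bind them, switch on the exporters ABCA1 and ABCG1 and MYLIP, a ubiquitin ligase that removes lipoprotein receptors. In monocytic cells, surplus cholesterol is either exported by ABCA1 or stored as esters made by SOAT1.

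The promoters of 5 members are printed as examples of the elements by which these programs read DNA, each as the 250 bases before the RefSeq start site (GRCh38.p14), 5′ to 3′. They are those of the member with the largest change (ABCA1), of the regulator and its feedback inhibitor (SREBF2 and INSIG1), and of 2 sterol enzymes that moved in opposite directions (LSS and MSMO1). Capitals mark a loose LXR-type repeat and an E-box in ABCA1, a sterol regulatory element and a CCAAT box in SREBF2, a CCAAT box and an E-box in INSIG1, and CCAAT boxes in LSS and MSMO1, on either strand.
ABCA1, chr9:104928156-104928405, minus strand: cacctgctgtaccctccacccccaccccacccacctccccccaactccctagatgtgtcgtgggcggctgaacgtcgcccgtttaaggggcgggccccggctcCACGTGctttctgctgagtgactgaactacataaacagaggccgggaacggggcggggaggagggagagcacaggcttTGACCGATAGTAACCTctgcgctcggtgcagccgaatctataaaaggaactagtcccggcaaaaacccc
SREBF2, chr22:41832855-41833104, plus strand: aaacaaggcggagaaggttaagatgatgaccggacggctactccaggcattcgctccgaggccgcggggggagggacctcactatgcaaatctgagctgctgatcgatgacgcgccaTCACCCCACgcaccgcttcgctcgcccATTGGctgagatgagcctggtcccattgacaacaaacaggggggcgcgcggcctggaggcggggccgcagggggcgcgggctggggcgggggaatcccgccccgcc
INSIG1, chr7:155297628-155297877, plus strand: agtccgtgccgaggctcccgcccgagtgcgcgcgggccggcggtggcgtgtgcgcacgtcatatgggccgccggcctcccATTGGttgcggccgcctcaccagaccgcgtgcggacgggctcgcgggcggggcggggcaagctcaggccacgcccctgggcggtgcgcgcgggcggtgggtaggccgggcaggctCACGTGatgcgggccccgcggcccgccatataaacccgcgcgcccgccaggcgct
LSS, chr21:46228775-46229024, minus strand: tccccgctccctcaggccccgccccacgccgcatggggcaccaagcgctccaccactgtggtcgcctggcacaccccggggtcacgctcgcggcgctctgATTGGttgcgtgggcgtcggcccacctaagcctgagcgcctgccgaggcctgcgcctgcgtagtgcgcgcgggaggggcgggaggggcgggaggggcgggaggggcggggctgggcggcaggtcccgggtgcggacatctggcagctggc
MSMO1, chr4:165327419-165327668, plus strand: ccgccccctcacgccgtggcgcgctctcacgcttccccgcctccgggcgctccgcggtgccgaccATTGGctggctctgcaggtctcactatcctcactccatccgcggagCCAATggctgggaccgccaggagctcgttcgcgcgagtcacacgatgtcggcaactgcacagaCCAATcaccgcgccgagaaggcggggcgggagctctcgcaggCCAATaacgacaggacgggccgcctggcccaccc

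Motifs were searched on both strands from 250 bases before to 50 bases after each start, in 28 members with a window. The CCAAT box (CCAAT), where NF-Y binds, was present in 21 of 28 members (75%) and in 42.6% of 10131 tested genes with a window. Its carriers moved both ways, 7 higher and 6 lower in sh-IRF1, and MSMO1 held 4 copies. The GC box (GGGCGG) was present in 26 members (92.9%, against 75.9%) and the E-box (CACGTG) in 5 (17.9%, against 12.7%), namely ABCA1, INSIG1, LSS, SC5D and SCAP. The sterol regulatory element (TCACNCCAC) was found in SREBF2 alone among the 28 (3.57%, against 1.36%), starting 133 bases before the start. The interferon regulatory factor motif (GAAA, any 2 bases, GAAA) was found in GGPS1 (3.57%, against 4%). A strict LXR repeat (AGGTCA repeated after any 4 bases) matched 0 members, against 0.00987%. A looser form, written after the windows were seen and with any base allowed at 1 position of each copy, matched ABCA1 (3.57%, against 0.0888%), starting 69 bases before the start. The strict repeat is a special case of the looser form, and a match describes letters only.

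The genes of cholesterol handling did not move together. Of 31 members tested, 9 were higher and 9 lower in sh-IRF1 than in sh-NC at an adjusted p under 0.05 (limma on log2(normalized count + 1)), 58.1% of them. Of all 14120 genes tested, 42.2% were called, 20.3% higher and 21.9% lower. With libraries scaled by total counts instead, 13 were higher and 8 lower. The median log2 fold change of the members was 0.029, against -0.0019 for all genes tested, and it turned to -0.016 without sh-NC replicate 2 and -0.001 without sh-IRF1 replicate 2. Changes were mostly small. At a log2 fold change beyond 0.5, the fold the study used, 6 members were called (19.4%, where 15.8% of all genes were), namely SOAT1 and DHCR7 higher and ABCA1, LBR, NR1H3 and LSS lower, where 8.27% of all genes were higher and 7.56% lower. Beyond 1, ABCA1 alone was called, lower, against 5.01% of all genes (2.75% higher and 2.25% lower). The groups did not overlap in 23 members (74.2%, where 69.2% of all genes did not), 13 higher and 10 lower (34.2% and 35% of all genes). For a single gene, groups of this size limit an exact permutation test (two-sided) to p = 0.33 or more, so the calls rest on a variance shared across genes, and 12 of the 18 were lost when its trend on the level was left out.

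**Figure D1:**
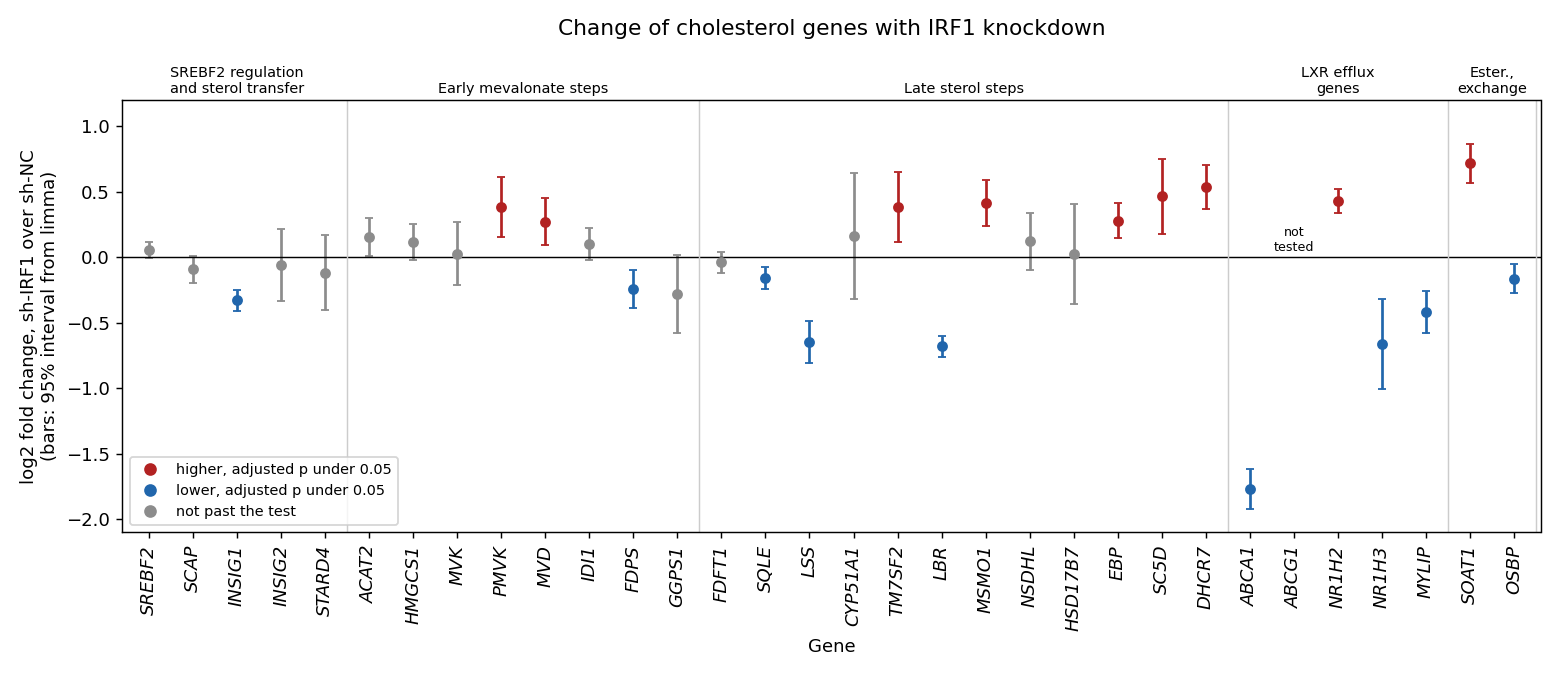
Log2 fold change of each member, sh-IRF1 over sh-NC (vertical axis), with genes along the horizontal axis by role group. Points are limma estimates, bars are 95% confidence intervals, red and blue mark genes called higher and lower, and ABCG1 was not tested. ABCA1 stands lowest at -1.77 and SOAT1 highest at 0.72, and both directions occur within the early and the late steps.

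The LXR efflux genes changed in all 4 tested members, 3 lower and 1 higher, where 21.9% of all genes were lower and 20.3% higher, and held the largest change of the set. ABCA1, the transporter that loads cellular cholesterol onto apolipoproteins, had normalized counts of 1744 and 1859 in sh-NC and 481 and 578 in sh-IRF1. Both knockdown libraries lay far below both controls, with means of 1802 ± 81.5 and 530 ± 68.4 (SD, n = 2 each), or 29.4% of sh-NC. The log2 fold change was -1.77 (SE 0.0756, limma adjusted p = 2.21e-24), with a 95% confidence interval from -1.92 to -1.62. Leaving out each library in turn kept it between -1.90 and -1.64. ABCA1 lies on chromosome 9 from 104781006 to 104928155, minus strand (GRCh38, GENCODE 44). ABCG1, the companion exporter for lipoprotein particles, had 1 and 3 reads in sh-NC and 0 and 0 in sh-IRF1. A count of 0 allows up to 3 reads, so ABCG1 was too low to test and no difference was detectable at this depth.

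The LXR genes themselves moved in opposite directions. NR1H3, which encodes the inducible LXR-alpha of macrophages and liver, had 184 and 223 in sh-NC and 130 and 125 in sh-IRF1 (203 ± 27.8 and 127 ± 4.02). Its sh-IRF1 libraries were both below its controls, at 62.7% of sh-NC (log2 fold change -0.66, SE 0.169, limma adjusted p = 0.00122). NR1H2, which encodes the widely expressed LXR-beta, had 2182 and 2232 in sh-NC and 3019 and 2925 in sh-IRF1 (2207 ± 35.4 and 2972 ± 66.3). It was 135% of sh-NC in the knockdown (log2 fold change 0.43, SE 0.0463, limma adjusted p = 9.33e-11). Per kilobase of exon, NR1H3 stood at 0.0991 and 0.118 of NR1H2 in sh-NC and at 0.0508 and 0.0502 in sh-IRF1, so NR1H2 was the more abundant of the pair in every library. NR1H2 shares 22.1% of its exonic bases with the neighbouring gene NAPSA, and the use of strand in counting is not given, so its reads are uncertain to that extent. NR1H3 lies on chromosome 11 from 47248300 to 47269033 and NR1H2 on chromosome 19 from 50329653 to 50383388, both on the plus strand. Without the trend of the variance, NR1H3 missed the threshold (limma adjusted p = 0.0562). MYLIP fell as well, from 931 and 845 in sh-NC to 649 and 683 in sh-IRF1, 74.9% of sh-NC (log2 fold change -0.41, SE 0.0796, limma adjusted p = 2.8e-05).

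SOAT1, which joins cholesterol to fatty acids for storage in droplets, rose the most of all members. Its normalized counts were 693 and 716 in sh-NC and 1125 and 1194 in sh-IRF1 (705 ± 15.9 and 1159 ± 48.6), 165% of sh-NC. The log2 fold change was 0.72 (SE 0.0728, limma adjusted p = 1.71e-11, 95% confidence interval 0.57 to 0.86). Set against the exporter per kilobase of exon, SOAT1 was 0.644 and 0.624 of ABCA1 in sh-NC and 3.78 and 3.34 of it in sh-IRF1, so the order of the storage and export transcripts was exchanged. SOAT1 lies on chromosome 1 from 179293714 to 179358680, plus strand. OSBP, which swaps cholesterol for a phosphoinositide at contacts between the endoplasmic reticulum and the Golgi, had 2108 and 1966 in sh-NC and 1914 and 1729 in sh-IRF1 (log2 fold change -0.16, SE 0.0548, limma adjusted p = 0.0141). The OSBP call was lost without sh-NC replicate 1 (-0.11) and without sh-IRF1 replicate 2 (-0.089), as well as with total-count scaling (-0.12).

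**Figure D2:**
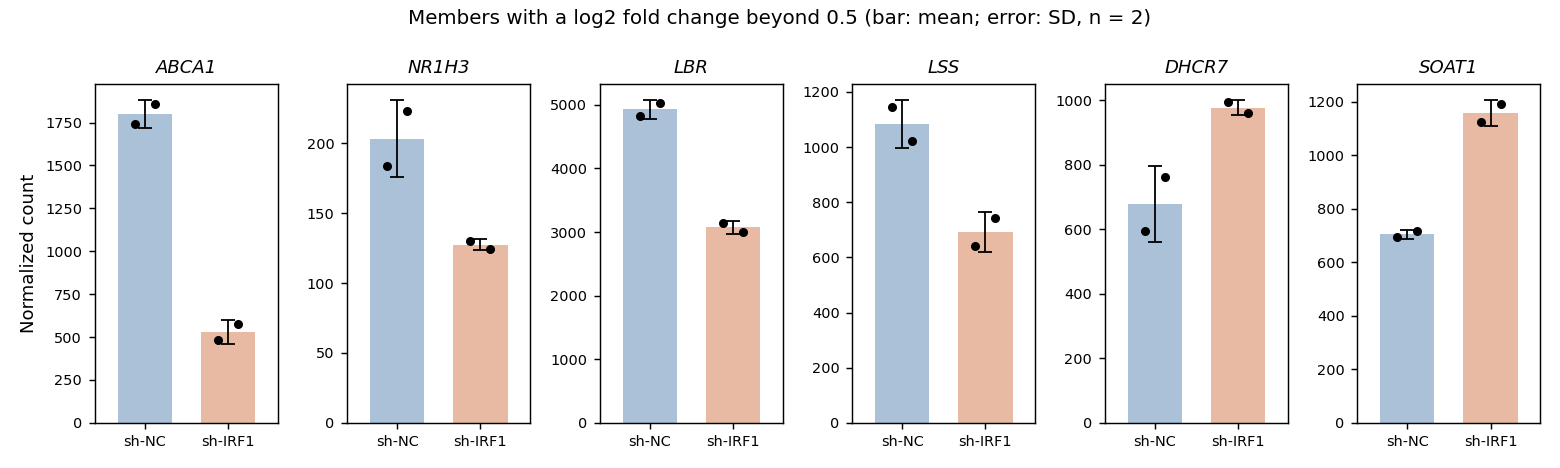
Normalized count (vertical axis from 0) in sh-NC and sh-IRF1, with a panel for each of the 6 members called beyond a log2 fold change of 0.5. Bars are group means, error bars are SD (n = 2) and points are libraries. In each panel the points of the groups do not overlap, as in ABCA1 (1744 and 1859 against 481 and 578). The members were selected on these same libraries, and the groups did not overlap in 69.2% of all genes tested.

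Among the regulators, the master activator gave no call while its feedback inhibitor fell. SREBF2 had 9861 and 9585 in sh-NC and 9963 and 10243 in sh-IRF1, 104% of sh-NC. Its log2 fold change of 0.055 (SE 0.0304) did not pass the test (limma adjusted p = 0.143), and the 95% confidence interval ran from -0.0059 to 0.12. With total-count scaling it reached 0.100 (limma adjusted p = 0.00584). INSIG1, itself induced by SREBF2, had 4809 and 4816 in sh-NC and 3976 and 3703 in sh-IRF1 (4812 ± 5.11 and 3839 ± 193). That was 79.8% of sh-NC, with both knockdown libraries below both controls (log2 fold change -0.33, SE 0.0398, limma adjusted p = 2.27e-09). Without the trend of the variance the INSIG1 call was lost (limma adjusted p = 0.0621). INSIG1 lies on chromosome 7 from 155297776 to 155310235 and SREBF2 on chromosome 22 from 41833105 to 41907306, both on the plus strand.

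The other genes of this group gave no call. INSIG2, the paralog that is not induced by SREBF2, had 234 and 276 in sh-NC and 242 and 245 in sh-IRF1. Per kilobase of exon, INSIG1 stood at 22.2 and 18.9 times INSIG2 in sh-NC and at 17.8 and 16.3 times in sh-IRF1. SCAP, the escort of SREBF2, had 2178 and 2360 in sh-NC and 2031 and 2224 in sh-IRF1 (log2 fold change -0.093, limma adjusted p = 0.152), with overlapping groups. Without sh-NC replicate 1 SCAP was called lower (-0.15, limma adjusted p = 0.0333). STARD4, a soluble sterol carrier, had 284 and 224 in sh-NC and 221 and 245 in sh-IRF1. The group thus had 0 members higher, 1 lower and 4 not past the test (20% called, against 42.2% of all genes tested). Its median log2 fold change was -0.093, and between -0.16 and -0.035 on leaving out each library.

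SREBF1, the paralog of SREBF2 that mainly serves fatty acid synthesis, fell to 43.6% of sh-NC (limma adjusted p = 1.50e-31). The SREBF1 level per kilobase of exon was 1.16 times that of SREBF2 in each sh-NC library and 0.505 and 0.471 of it in the sh-IRF1 libraries. The balance between the paralogs therefore differed beyond the spread of the libraries while SREBF2 itself gave no call.

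In the early mevalonate steps 2 of 8 members were higher, 1 was lower and 5 were not past the test. The called share of 37.5% was near the 42.2% of all genes tested, and the median log2 fold change was 0.11. The groups did not overlap in 7 of these 8 genes (87.5%, against 69.2% of all genes). PMVK, a mevalonate pathway kinase, had 308 and 306 in sh-NC and 406 and 397 in sh-IRF1 (307 ± 1.17 and 402 ± 6.06). It was 131% of sh-NC, with close replicates in both groups (log2 fold change 0.39, SE 0.114, limma adjusted p = 0.00496). MVD, the decarboxylase that follows it, had 546 and 606 in sh-NC and 676 and 714 in sh-IRF1 (log2 fold change 0.27, limma adjusted p = 0.00978). The MVD call was lost without sh-NC replicate 1 (0.20) and without sh-IRF1 replicate 2 (0.23). FDPS, which makes farnesyl diphosphate at the branch point to isoprenoids and sterols, moved the other way, with 974 and 968 in sh-NC and 801 and 841 in sh-IRF1 (971 ± 4.92 and 821 ± 28.8). The FDPS log2 fold change of -0.24 (SE 0.0729, limma adjusted p = 0.00591) became -0.21 and lost the call without sh-IRF1 replicate 1.

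The remaining early genes were not past the test. HMGCS1, which condenses acetyl units ahead of mevalonate, had 1092 and 1080 in sh-NC and 1258 and 1104 in sh-IRF1. ACAT2, the thiolase of the first step, had 909 and 867 against 982 and 993, and IDI1, the isomerase, 1381 and 1425 against 1586 and 1434. In these 3 the groups did not overlap and sh-IRF1 was higher, as in 34.2% of all genes tested, but the adjusted p-values were 0.165, 0.0791 and 0.166 (limma). With total-count scaling all 3 passed, as HMGCS1 did without sh-IRF1 replicate 2 (log2 fold change 0.21). MVK, the first mevalonate kinase, had 344 and 313 against 307 and 364. GGPS1, which makes the precursor for protein geranylgeranylation, had 240 and 234 in sh-NC and 176 and 216 in sh-IRF1 (log2 fold change -0.28, limma adjusted p = 0.128). The GGPS1 value was -0.13 without sh-IRF1 replicate 1 and -0.43 without sh-IRF1 replicate 2.

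The late sterol steps were divided, with 5 of 12 members higher, 3 lower and 4 not past the test (66.7% called, against 42.2% of all genes). Log2 fold changes ran from -0.68 to 0.54 around a median of 0.14, which became 0.019 without sh-NC replicate 2. The genes that fell included the enzymes that make and close the ring precursor. SQLE, squalene epoxidase, had 4221 and 4081 in sh-NC and 3640 and 3796 in sh-IRF1, 89.6% of sh-NC (log2 fold change -0.16, limma adjusted p = 0.0011). Without sh-IRF1 replicate 1 it narrowly missed the threshold (limma adjusted p = 0.0537). LSS, lanosterol synthase, had 1146 and 1023 in sh-NC and 640 and 744 in sh-IRF1 (1084 ± 86.8 and 692 ± 73.8). LSS was 63.8% of sh-NC, and each knockdown library lay below each control (log2 fold change -0.65, SE 0.079, limma adjusted p = 2.25e-09, 95% confidence interval -0.81 to -0.49). The LSS level per kilobase of exon was 0.161 and 0.149 of that of SQLE in sh-NC and 0.105 and 0.117 in sh-IRF1. LSS lies on chromosome 21 from 46188141 to 46228824, minus strand, and without the trend of the variance its adjusted p was 0.0545 (limma). FDFT1, squalene synthase, was not past the test (log2 fold change -0.038, limma adjusted p = 0.47).

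LBR, which serves both as a sterol reductase and as the lamin B receptor of the inner nuclear membrane, had the smallest adjusted p of the late steps. Its normalized counts were 4822 and 5035 in sh-NC and 3145 and 3003 in sh-IRF1 (4929 ± 150 and 3074 ± 101), 62.4% of sh-NC. The log2 fold change was -0.68 (SE 0.0407, limma adjusted p = 5.16e-19, 95% confidence interval -0.76 to -0.60). TM7SF2, its paralog for the same reductase step without the lamin-binding role, had 216 and 254 in sh-NC and 329 and 285 in sh-IRF1, so its groups were also apart but in the opposite direction. The TM7SF2 log2 fold change was 0.38 (SE 0.134, limma adjusted p = 0.0177), and the call was lost with DESeq2 (adjusted p = 0.0606) and without either sh-NC replicate 1 or sh-IRF1 replicate 1 (0.27 and 0.28). Per kilobase of exon, LBR was 13.3 and 11.8 times TM7SF2 in sh-NC and 5.70 and 6.29 times in sh-IRF1. LBR lies on chromosome 1 from 225401502 to 225428925, minus strand.

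The other 4 late genes that rose were DHCR7, MSMO1, EBP and SC5D. DHCR7, which carries out a final reduction to cholesterol, had 596 and 762 in sh-NC and 995 and 960 in sh-IRF1 (679 ± 117 and 978 ± 24.3). The controls were spread more widely than the knockdown libraries, yet did not reach them, and DHCR7 was 144% of sh-NC (log2 fold change 0.54, SE 0.0847, limma adjusted p = 8.32e-07). Leaving out each library in turn gave 0.36 to 0.71, and without the trend of the variance the adjusted p was 0.104 (limma). DHCR7 lies on chromosome 11 from 71428193 to 71452868, minus strand. MSMO1, the oxidase that strips methyl groups from lanosterol products, had 531 and 578 in sh-NC and 735 and 742 in sh-IRF1, 133% of sh-NC (log2 fold change 0.41, SE 0.0861, limma adjusted p = 9.44e-05). EBP, the sterol isomerase, had 1021 and 945 against 1218 and 1169 (log2 fold change 0.28, limma adjusted p = 0.000634). SC5D, the desaturase that follows EBP, had 248 and 189 against 277 and 324 (log2 fold change 0.47, limma adjusted p = 0.00649), and lost the call without sh-NC replicate 2 (0.27) or sh-IRF1 replicate 2 (0.35). In these 4 genes the sh-IRF1 libraries were above the controls without overlap, as in 34.2% of all genes tested. The DHCR7 level per kilobase of exon went from 0.547 and 0.784 of LSS in sh-NC to 1.64 and 1.36 of it in sh-IRF1.

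The other 3 late genes of demethylation, apart from MSMO1, gave no call. CYP51A1, lanosterol demethylase, had 86.2 and 64.7 in sh-NC and 80.6 and 87.1 in sh-IRF1, and shares 74.1% of its exonic bases with other genes, so its reads are uncertain. NSDHL and HSD17B7, which remove the remaining methyl group, had log2 fold changes of 0.12 and 0.023 with overlapping groups (limma adjusted p = 0.381 and 0.937). HMGCS1 (37.7%), GGPS1 (41%), EBP (36.4%), ACAT2 (22.2%), FDPS (18.6%) and IDI1 (15%) also share more than 10% of exonic bases with another gene.

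**Figure D3:**
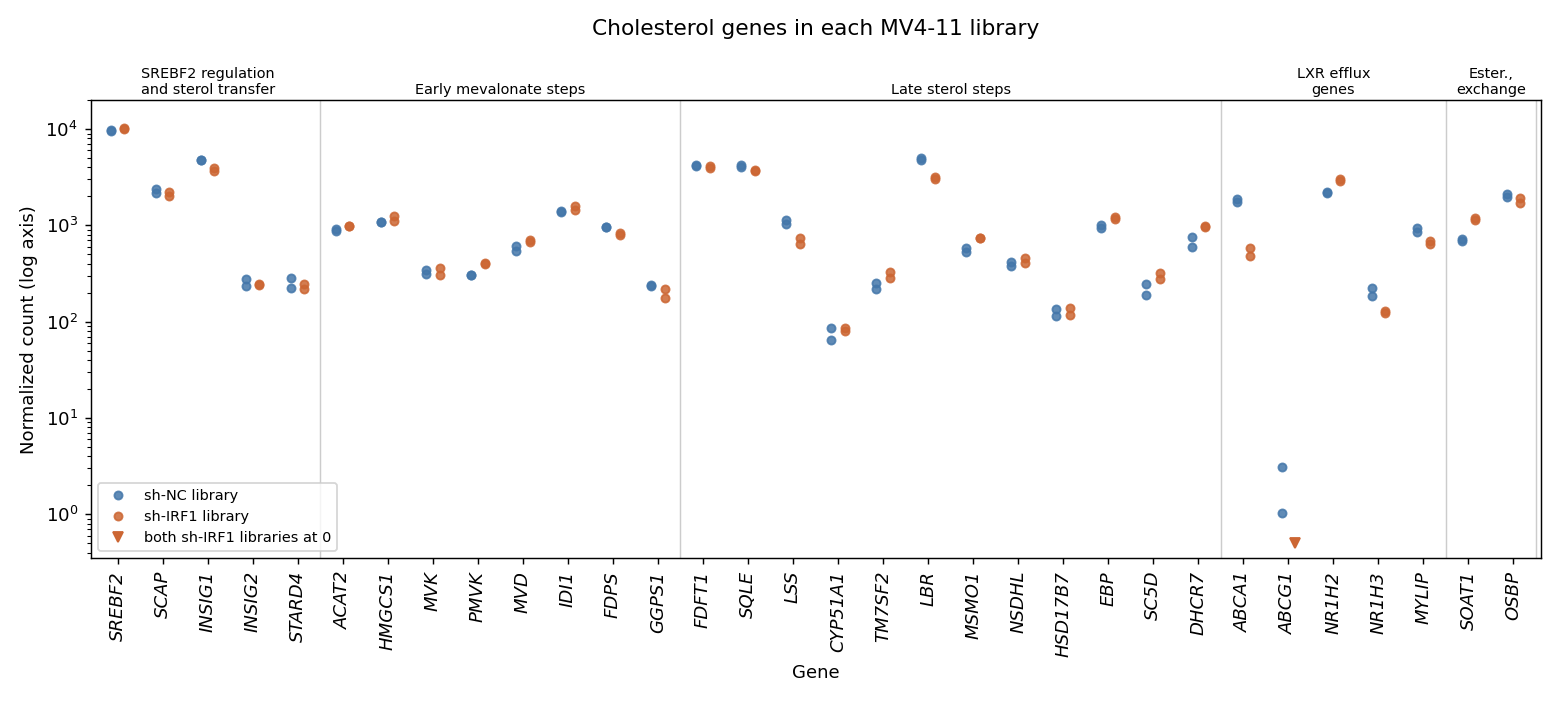
Normalized count of each of the 32 members (log axis), with genes along the horizontal axis by role group and a point for each sh-NC (blue) and sh-IRF1 (orange) library. ABCA1 shows the widest gap of the tested members, and the triangle marks ABCG1, at 0 in both sh-IRF1 libraries.

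Summed over the 20 enzymes of synthesis, normalized counts were 23331 and 23448 in sh-NC and 21930 and 21721 in sh-IRF1. The sum was thus lower in the knockdown although 7 of these enzymes were higher and 4 lower (55% called, against 42.2% of all genes tested). LBR, among the most abundant, fell by the most counts, from 4822 and 5035 in sh-NC to 3145 and 3003 in sh-IRF1. Such a sum leans on LBR and does not describe the enzymes as a set. Per kilobase of exon, INSIG1 ranked first of the members in sh-NC at 1319 normalized counts per kilobase and went to 1052 in sh-IRF1, while SREBF2, second in sh-NC, went from 1207 to 1255 and came to lie above it. SQLE (964 and 864), LBR (863 and 538) and FDFT1 (819 and 798) followed. ABCA1 went from 159 to 46.7 normalized counts per kilobase, SOAT1 from 101 to 166, LSS from 150 to 95.6 and DHCR7 from 98.7 to 142. At the low end of the tested members in sh-NC, CYP51A1 stood at 18.1 and 20.1, SC5D at 21.7 and 29.9 and HSD17B7 at 26.4 and 26.9. Above them came MVK at 36.4 and 37.25, STARD4 at 44.7 and 40.9 and NR1H3 at 44.8 and 28.1. The exon length joins all annotated exons of a gene, not those of the transcript in use, such as 9018 bases for MVK and 1002 for PMVK. Levels and ranks between genes per kilobase are therefore approximate.

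**Figure D4:**
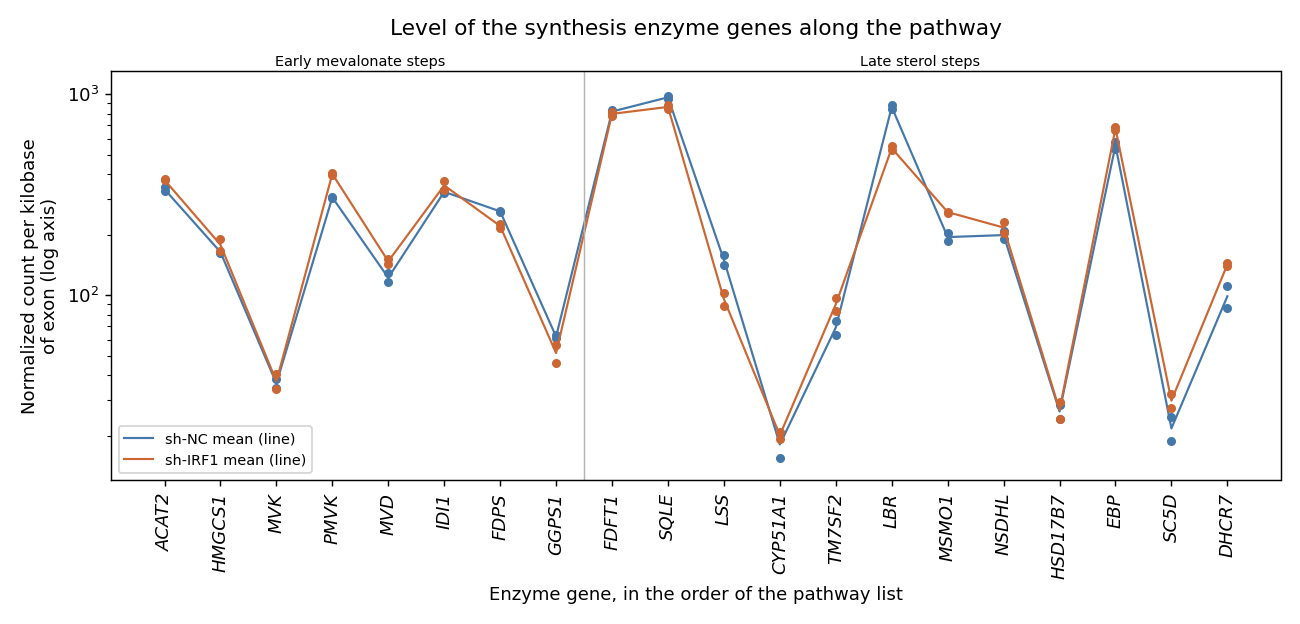
Normalized count per kilobase of exon (log axis) of the 20 enzymes of synthesis in the order of the pathway list, for sh-NC (blue) and sh-IRF1 (orange), with points for libraries and lines through group means. Among the called enzymes, sh-IRF1 lies below at FDPS, SQLE, LSS and LBR. It lies above at PMVK, MVD, TM7SF2, MSMO1, EBP, SC5D and DHCR7.

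Genes around the members were read from lists of 43 other pathway genes, of which 36 were tested, 14 higher, 11 lower and 11 not past the test. That was 69.4% called, against 42.2% of all genes tested (20.3% higher and 21.9% lower), and the median log2 fold change was 0.083, against -0.0019. The members and these lists were chosen with earlier results of these data known. Shares called in them, here and below, are therefore descriptions and not a test of the pathway. Of 9 genes of SREBP processing and degradation, 4 were higher and 1 lower (55.6% called). ERLIN2, a membrane scaffold that helps degrade sterol-regulated proteins, had 2500 and 2735 in sh-NC and 4285 and 4228 in sh-IRF1 (log2 fold change 0.70, SE 0.0439, limma adjusted p = 2.56e-18). MBTPS1, the first protease that cuts SREBP in the Golgi, had 1874 and 1972 against 1681 and 1727 (log2 fold change -0.17, limma adjusted p = 0.00704). The MBTPS1 call was lost without sh-NC replicate 2 (-0.14) or sh-IRF1 replicate 1 (-0.16).

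Of 9 tested genes of lysosomal and membrane sterol transport, 5 were higher and 1 lower. That was 66.7% called, against 42.2% of all genes tested (20.3% higher and 21.9% lower). NPC1, which moves cholesterol out of lysosomes, had 1091 and 999 in sh-NC and 1720 and 1776 in sh-IRF1 (log2 fold change 0.74, SE 0.0617, limma adjusted p = 4e-14). NPC2, its soluble partner, named after its values were seen, had 438 and 431 against 868 and 774 (log2 fold change 0.91, limma adjusted p = 6.68e-12). GRAMD1A, an endoplasmic reticulum carrier of plasma membrane cholesterol, had 1507 and 1488 against 1372 and 1300 (log2 fold change -0.16, limma adjusted p = 0.0219). GRAMD1B, of the same gene family and named after its values were seen, moved the other way and by more. It had 177 and 162 against 344 and 311 (log2 fold change 0.94, limma adjusted p = 2.25e-07). The GRAMD1A call was lost without sh-NC replicate 1 (-0.16) or sh-IRF1 replicate 2 (-0.13), with DESeq2 (adjusted p = 0.0567) and with total-count scaling (-0.12).

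Of 7 tested LXR partners and targets, 1 was higher (SMPDL3A), 4 lower (RXRA, PLIN2, LPCAT3 and SCARB1) and 2 not past the test. That was 71.4% called, against 42.2% of all genes tested (20.3% higher and 21.9% lower). RXRA, a receptor with which LXRs pair on DNA, had 5744 and 5657 in sh-NC and 4134 and 4230 in sh-IRF1 (log2 fold change -0.45, SE 0.037, limma adjusted p = 3.35e-14). SMPDL3A, a phosphodiesterase induced by LXR in macrophages, was near the detection limit with 8.21 and 4.11 against 15.9 and 25.3 (log2 fold change 1.62, SE 0.628, limma adjusted p = 0.0337). The SMPDL3A call was lost with DESeq2 (adjusted p = 0.0802) and without sh-NC replicate 2 (limma adjusted p = 0.124). With either sh-IRF1 library left out the gene was below the filter on low values. Both sh-NC values were under the minimum of that filter, so SMPDL3A was tested only because its sh-IRF1 values were higher. A gene admitted in this way could only come out higher in sh-IRF1. The SMPDL3A call, and its place in the count of higher genes, are therefore no evidence of direction. NCEH1, which hydrolyses stored cholesterol esters and so opposes SOAT1, rose alongside it, from 487 and 551 to 929 and 899 (log2 fold change 0.82, SE 0.0844, limma adjusted p = 2.7e-11). It was the only gene tested of 6 listed for oxysterols and esters.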

How the data were processed

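Total RNA of MV4-11 cells was sequenced in 2 sh-NC and 2 sh-IRF1 libraries (TruSeq kit). Per the methods a service company quantified genes, with DESeq2 for differential expression, and the submitters' processing notes name HISAT2 2.0.5 and hg38. The counting tool, annotation and use of strand are not given in the sources used here. The deposited values are a normalized signal, for which the authors divided each gene's reads by 1 size factor per library. Whole reads were recovered for 100% of values (tolerance 0.001 reads). 0 other per-sample columns were present.

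Limma 3.58.1 (R 4.3.3, trend and robust shrinkage) was fitted to log2(value + 1) for the 14120 of 23622 genes that reached a value of 10 in 2 or more libraries, with Benjamini-Hochberg adjustment over all of them and two-sided tests. Fold changes are on this scale, which understates changes of low genes. EdgeR 4.0.16 and DESeq2 1.42.0 on the recovered reads, other scalings, filters, pseudocounts, variance settings, a replicate block and leaving out each library were alternatives. On simulated data for this comparison, limma recovered 99 of 100 changes of log2 size 1 and 79 of 100 of size 0.5 among 14080 genes. The simulation gave all genes the same spread beyond counting, and placed changes in few genes, none with low counts. It also used another scaling, so these shares are not the power of the main test and do not cover low genes. Replicates differed beyond sampling noise (mean chi-square per gene 2.93 in sh-NC and 2.47 in sh-IRF1, where sampling alone gives about 1). The 2 libraries of each group limit the precision, and counting floors cover counting error only.

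Symbols matched 23456 of 23622 identifiers. Positions, exon lengths and shared bases came from GENCODE 44 on GRCh38, and promoters from RefSeq (GRCh38.p14). The members and lists were chosen with earlier results of these data known. Given in full were members called beyond a log2 fold change of 0.5 without overlap and the member with the smallest adjusted p in each direction of a role group, and, from other pathway lists, the gene with the smallest adjusted p in each direction. Other members are given by value or count.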

Additional observations from a re-analysis of the deposited data

How the results depend on the processing

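Each member was refitted under 16 alternatives, and of the 18 called members 6 kept call and direction under all of them (ABCA1, LBR, SOAT1, NR1H2, PMVK and MSMO1). Leaving out the trend of the variance on the level gave 1108 genes higher and 1144 lower in place of 2861 and 3092, and 4 and 2 members in place of 9 and 9. Outside that setting 12 members kept the call. Beyond a log2 fold change of 0.5 there were 1168 and 1067 genes and 2 and 4 members, and beyond 1 there were 389 and 318 genes and 0 and 1 members. EdgeR called 2955 genes higher and 3080 lower, and DESeq2 2312 and 2605. Leaving out each library gave 2053 to 2679 genes higher and 2445 to 2723 lower, with 7 to 8 and 7 to 9 members. With 1 library left in a group, its spread was assumed to be that of the other group. Uncalled members changed sign in FDFT1 with total-count scaling (0.00603) and, on leaving out a library, in INSIG2 (-0.18 to 0.058), STARD4 (-0.29 to 0.053), MVK (-0.094 to 0.15), CYP51A1 (-0.040 to 0.37) and HSD17B7 (-0.11 to 0.16). The cause was not tested. Same-numbered libraries showed no shared deviation (correlation of same-numbered deviations -0.0154), which does not settle whether they were prepared as pairs. With a replicate block 2903 genes were higher and 3147 lower, with 9 and 9 members.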

Other observations

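The isoprenoid branches, which take their substrates from the early mevalonate steps, had 3 of 10 genes higher, 5 lower and 2 not past the test (80% called, against 42.2% of all genes tested). NUS1, a subunit of the enzyme that makes the dolichol chain needed for protein glycosylation, had normalized counts of 2043 and 1960 in sh-NC and 684 and 722 in sh-IRF1 (2002 ± 59.1 and 703 ± 26.9, SD, n = 2 each). Both knockdown libraries lay far below both controls, at 35.1% of sh-NC (log2 fold change -1.51, SE 0.0645, limma adjusted p = 2.32e-24). DHDDS, the catalytic partner of NUS1, named after its values were seen, had 454 and 459 in sh-NC and 516 and 665 in sh-IRF1 (log2 fold change 0.36, limma adjusted p = 0.00355). The DHDDS value was 0.18 without sh-IRF1 replicate 2, and the call was lost (limma adjusted p = 0.288). COQ2, which attaches the isoprenoid tail in coenzyme Q synthesis, had 605 and 578 in sh-NC and 816 and 731 in sh-IRF1 (log2 fold change 0.38, SE 0.0848, limma adjusted p = 0.000217), and lost the call without the trend of the variance.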
